A study of Mus musculus with 56 samples.

Results

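Mice are active and eat mainly at night, so daytime-restricted feeding (DRF) moves their meals to the rest phase and nighttime-restricted feeding (NRF) keeps them in the active phase. The data here are 4 gastrocnemius libraries of DRF mice and 4 of NRF mice, all taken at ZT4, which is 4 h after the lights came on. They were chosen by their labels alone and are 8 of the 56 libraries of the series, which has 4 libraries of each regimen at each of 7 times. All groups were C57BL/6J females, housed together under 12 h of light and 12 h of dark, given chow freely for 7 days and then one of the regimens for another 7 days, and 9 weeks old at collection. The groups at ZT4 differ in the regimen alone, which is named for the light phase in DRF and for the dark phase in NRF. The labels give no clock hours for the food. If the food followed the light phase, DRF mice had had access to food for 4 h at ZT4 and NRF mice had been without it for as long. No group was fed freely through the second week, so a difference does not show which regimen departs from free feeding. The labels do not say that the libraries of a group came from separate mice. In the main fit the p-values measure the spread between libraries of a group, estimated over all 56 libraries and not the 8 alone. That spread may be technical.

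Skeletal muscle moves between fuels as food comes and goes. Insulin in the fed state drives glucose uptake, glycolysis, glycogen and protein synthesis, while in the fast muscle relies on fatty acids, which activate the nuclear receptors of the PPAR family and the genes of their uptake, storage in droplets and oxidation. FoxO factors, which insulin signalling keeps out of the nucleus, promote protein breakdown and autophagy in the fast. Muscle also holds a circadian clock, a loop of transcription factors with outputs such as Dbp, and the clock of peripheral tissues can be set by the time of feeding.

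Gastrocnemius is a mixed muscle with mostly fast fibres. The 10 marker genes of skeletal muscle fibres summed to 128600 to 166800 CPM (reads scaled to a library size of 1000000) in the DRF libraries and 119700 to 192400 CPM in the NRF libraries. NRF replicate 3 stood apart. In the 4 DRF libraries the 12 slow fibre genes, such as the slow myosin gene Myh7, summed to 4073, 5132, 3323 and 4659 CPM, and in the 4 NRF libraries to 4908, 3369, 428 and 4575 CPM. The NRF library with 428 CPM, replicate 3, ranked second lowest among all 56 libraries. The median log2 difference of the 12 slow fibre genes, DRF minus NRF, was 0.96 with all libraries and -0.09 without NRF replicate 3, and 0 of the 12 passed the test either way. In bulk tissue fewer fibres of a type and less RNA per fibre cannot be told apart. The 13 fast fibre genes summed to 163000 to 215300 CPM in DRF and 154000 to 260700 CPM in NRF. The red blood cell genes, 7 in all, summed to 431 to 651 CPM in DRF and 251 to 429 CPM in NRF, so these groups did not overlap, and 0 of the 5 tested passed. The 10 adipocyte genes overlapped between groups, at 3770 to 5008 CPM in DRF and 3525 to 6433 CPM in NRF. None of the 7 neutrophil and 10 lymphocyte markers reached a mean of 1 CPM. Whether blood, fat or fibre content had a part in any result below was not tested beyond the fits without NRF replicate 3, with a slow fibre score and with an adipocyte score.

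**Figure D1:**
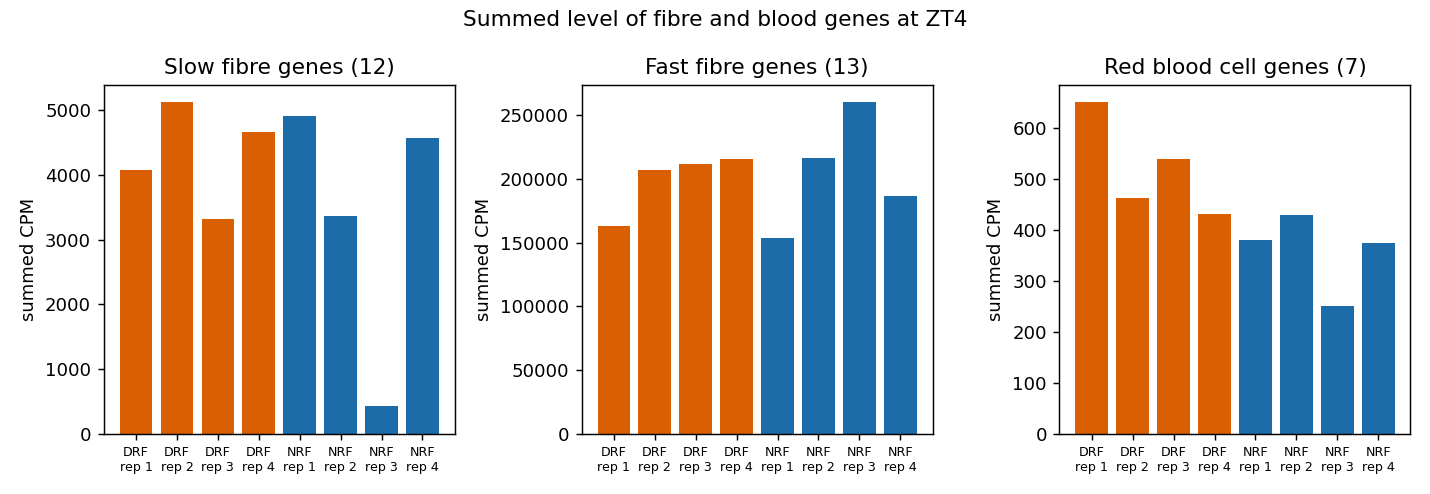
Summed level (CPM) of the slow fibre, fast fibre and red blood cell genes in each of the 8 ZT4 libraries, with DRF bars left of NRF bars. NRF replicate 3 holds 428 CPM of slow fibre genes, against 3323 to 5132 CPM in the other 7 libraries.

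Few genes differed at ZT4, and genes of fatty acid handling were among those with the largest rises. Of 12025 genes with a mean of at least 1 CPM over all libraries, 117 differed between DRF and NRF at an adjusted p under 0.05 (limma on log2(CPM + 1), Benjamini-Hochberg over all genes tested), which is 0.973%. In DRF 81 genes (0.674%) were higher and 36 (0.299%) were lower. At an unadjusted p under 0.05 there were 1367, of which 851 (7.08%) were higher and 516 (4.29%) lower. The sizes were modest, with a median of 0.48 log2 units among the 117. Just 16 were higher and 3 lower by 1 log2 unit or more. All 4 DRF libraries lay above all 4 NRF libraries for 77 of the 117 and below them for 32, and 8 overlapped. Over all genes tested the groups did not overlap in 9.72%, with DRF above in 5.77% and below in 3.95%. Of the 117, 20 share reads with other genes and are marked as uncertain where named.

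The counts depended on single libraries. Without NRF replicate 3, 46 genes were called, all among the 117, and without NRF replicate 4 there were 39. Without DRF replicates 1, 3 or 4 there were 59, 71 and 71. In each of 21 other settings all 117 kept their direction, but these settings refit the libraries on which the genes were called, so this is no independent support. Just 18 of the 117 passed in every setting, and 27 passed whichever of the 8 libraries was left out. With recovered read totals as library sizes, 24 genes were higher and 42 lower, so that 36.4% of calls were higher in DRF against 69.2% in the fit above; 0 of the 117 changed sign. The genes named by rule below that did not pass with those totals were Plin5, Fkbp5, Rasl11b, Igf1r, Atg14, Chac1, Dnajb9, Hspa5, Eif4a1, Nolc1, Srxn1, Txnrd1 and Cat (adjusted p = 0.0522 for Plin5 to 0.287 for Hspa5). Fitted on the 8 ZT4 libraries alone, without the spread of the other 48, 110 genes were called and 56 were among the 117; of the genes named below by rule that held through every left-out library, Hspa1b, Nav2, Gng7 and Lmod1 did not pass there (adjusted p = 0.0877, 0.064, 0.0614 and 0.0614).

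**Figure D2:**
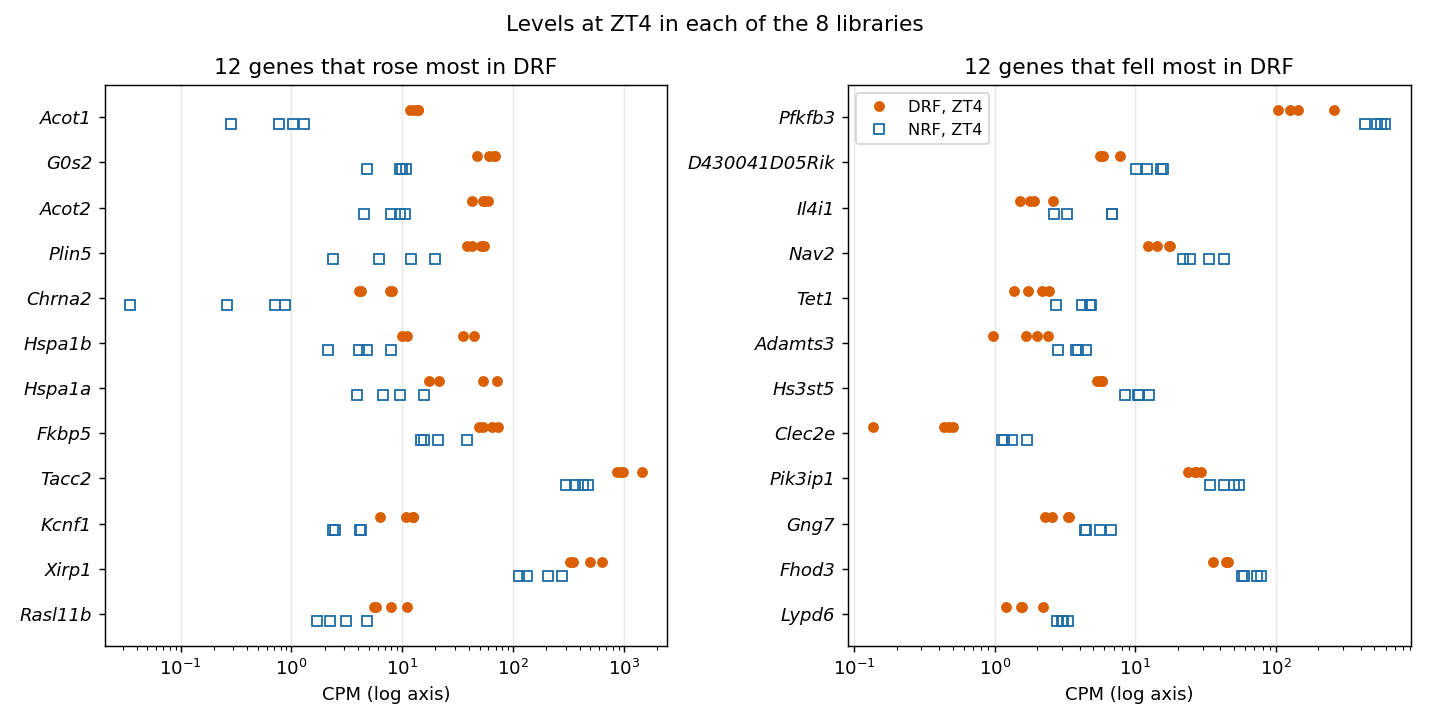
Level (CPM, log axis) in each of the 8 ZT4 libraries of the 12 genes that rose most and the 12 that fell most in DRF among called genes whose groups do not overlap. DRF libraries are filled circles and NRF libraries open squares, such as G0s2 at 47.3 to 68.8 CPM in DRF and 4.78 to 10.7 CPM in NRF.

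On the log2(CPM + 1) scale with all libraries, genes of fatty acid handling had the 4 largest rises; as a ratio of means Chrna2, described below, stood at 12.9, above G0s2 at 6.99, Acot2 at 6.46 and Plin5 at 4.65. Acot1 and Acot2, adjacent genes at chr12:84009502-84017670 and chr12:83987861-83993877 of GRCm38.p6, encode the cytosolic and the mitochondrial thioesterase that release fatty acids from coenzyme A. Acot2 was at 54.4, 59.9, 43.1 and 54.2 CPM in DRF and at 10.7, 7.9, 4.57 and 9.61 CPM in NRF. Its log2 difference was 2.60 ± 0.46 (SE, n = 4 each, adjusted p = 0.00157). Acot1 was at 11.7 to 14 CPM in DRF and 0.284 to 1.31 CPM in NRF, with a log2 difference of 2.96 ± 0.51 (adjusted p = 0.00141). These genes share reads, so the rise could not be fully divided between them. G0s2 encodes a protein that inhibits the triglyceride lipase ATGL. It was at 68.2, 47.3, 60.6 and 68.8 CPM in DRF and at 10.7, 10.01, 4.78 and 9.48 CPM in NRF, and its log2 difference was 2.71 ± 0.45 (adjusted p = 0.000781). The calls of Acot1, Acot2 and G0s2 held whichever library was left out.

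Plin5, a coat protein of lipid droplets in oxidative tissue, was at 51.9, 54.6, 38.2 and 42.8 CPM in DRF and at 19.8, 6.24, 2.36 and 11.9 CPM in NRF. The groups did not overlap, NRF replicate 3 was the lowest, and the log2 difference was 2.40 ± 0.57 (adjusted p = 0.0221). That call was lost without NRF replicate 3 (adjusted p = 0.183), and also without DRF replicates 1, 2 or 4 or NRF replicate 2 (adjusted p = 0.052 to 0.0776). Mlycd, whose enzyme breaks down malonyl-CoA, the inhibitor of mitochondrial fatty acid import, was at 121, 127, 104 and 120 CPM in DRF and at 73.4, 52.8, 45.4 and 65.0 CPM in NRF. Every DRF library lay above every NRF library, and the log2 difference was 1.00 ± 0.21 (adjusted p = 0.0081; 0.0626 without NRF replicate 3). Hsd17b4, an enzyme of peroxisomal fatty acid oxidation, and Fitm2, a protein of droplet formation, rose by 0.59 ± 0.15 and 0.61 ± 0.14 log2 units (adjusted p = 0.041 and 0.02), and were picked out after their values were seen. Neither passed without NRF replicate 3 (adjusted p = 0.2 and 0.11). Of the 8 fits with 1 library left out Hsd17b4 passed in 1, the one without NRF replicate 1, and Fitm2 in 4, failing also without DRF replicates 1 or 2 or NRF replicate 4; Hsd17b4 missed under the replicate block (adjusted p = 0.0544).

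As a list, 4 of 24 PPAR targets rose and 0 fell, namely Acot1, Acot2, Mlycd and Plin5. Their median log2 difference was 0.50, beside 0.01 over all genes tested, and 12 were higher at an unadjusted p under 0.05. Genes of this list are known to rise in the fast, and the 4 that passed were higher in the regimen named for daytime food. Without NRF replicate 3 the median was 0.43, and 2 rose, Acot1 and Acot2, the adjacent genes that share reads. Pdk4, the kinase that shuts pyruvate dehydrogenase, averaged 602 CPM in DRF and 246 CPM in NRF, a log2 difference of 2.11 ± 0.76 that did not pass (adjusted p = 0.21). The mitochondrial carrier gene Slc25a34 differed by 2.37 ± 0.65 (adjusted p = 0.066). Among lipid droplet and lipolysis genes, 2 of 15 rose (G0s2 and Plin5), with a median of 0.42; Pnpla2, which encodes ATGL, averaged 379 CPM in DRF and 194 CPM in NRF and just missed the threshold (adjusted p = 0.051). Of 24 fatty acid oxidation genes Mlycd alone passed, 22 had a difference above 0, and the median was 0.38. Over all 12025 genes tested 6234 had a difference above 0, and the lists were chosen with earlier results of these data known. Acsl1, which activates long-chain fatty acids, differed by 0.91 ± 0.26 (adjusted p = 0.072). Without NRF replicate 3, the library low in slow fibre genes, the lipid droplet median was 0.30 and the oxidation median 0.25. All 25 oxidative phosphorylation genes lay above 0 with a median of 0.16, which was 0.09 without NRF replicate 3, and 0 passed even at an unadjusted p under 0.05. None of 23 genes of fatty acid and triglyceride synthesis and none of 24 of sterol synthesis passed; at an unadjusted p under 0.05, 6 and 1 were higher and 1 and 1 lower (limma).

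**Figure D3:**
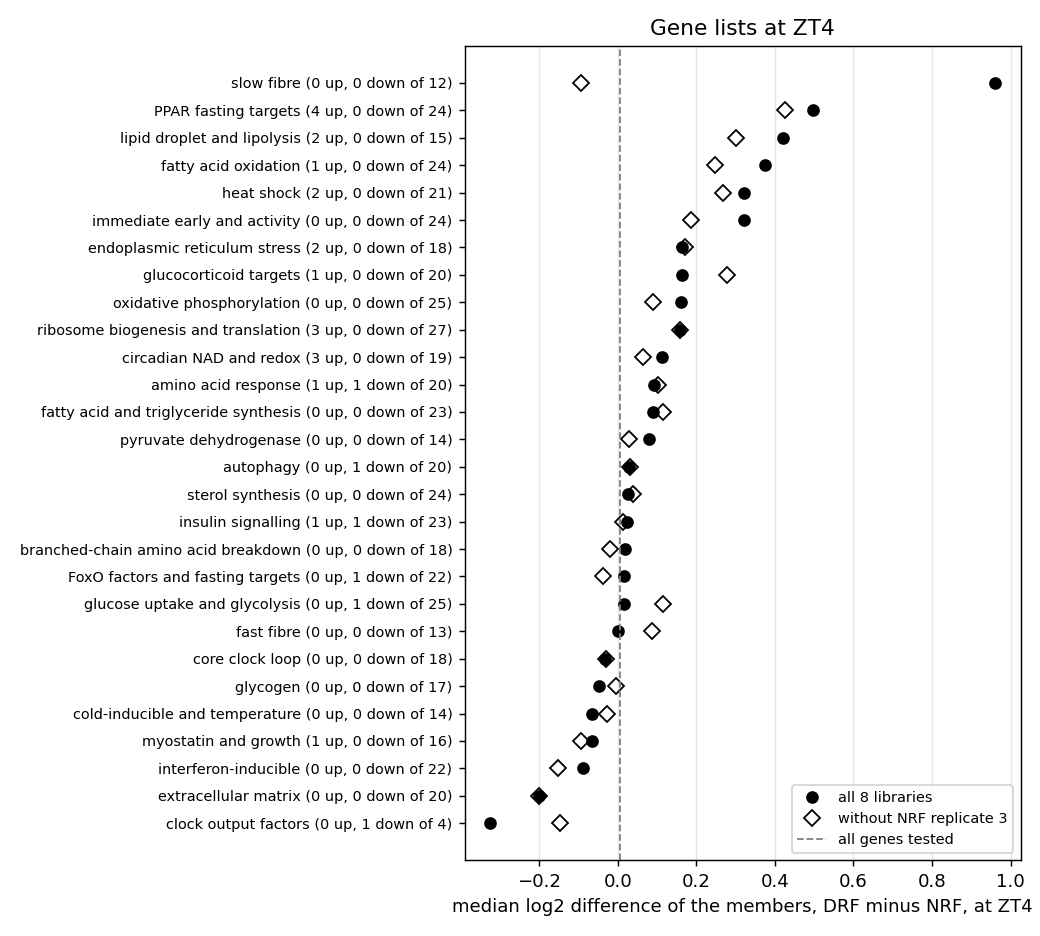
Median log2 difference (DRF minus NRF, on log2(CPM + 1)) of each gene list at ZT4 with all 8 libraries (filled circles) and without NRF replicate 3 (open diamonds), with the number called in each direction beside its name; the dashed line is the median of all genes tested. The slow fibre list lies at 0.96 with and -0.09 without that library, and the PPAR list at 0.50 and 0.43.

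Some chaperone genes were also called. Hspa1b and Hspa1a, neighbours on chromosome 17 that both encode the inducible Hsp70, share reads and are uncertain between themselves. Hspa1b was at 45.0, 11.2, 35.2 and 10.05 CPM in DRF and at 4.83, 7.99, 2.13 and 4.11 CPM in NRF. DRF replicates 1 and 3 were far above replicates 2 and 4, and all were above NRF. The log2 difference was 2.02 ± 0.40 (adjusted p = 0.00521). Hspa1a differed by 1.99 ± 0.43 (adjusted p = 0.00869), a call lost without DRF replicates 1 or 3 or NRF replicates 3 or 4 (adjusted p = 0.0504 to 0.0888). Of 21 heat shock genes these 2 rose and 0 fell, against 0.674% and 0.299% of all genes tested. All 21 differences were above 0, against 6234 of the 12025 genes tested, in a list chosen with earlier results of these data known. The median was 0.32, or 0.27 without NRF replicate 3. At an unadjusted p under 0.05, 13 (61.9%) were higher, against 7.08% of all genes tested. The constitutive Hsp70 gene Hspa8 differed by 0.41 ± 0.11 (adjusted p = 0.061) and the co-chaperone gene Bag3 by 0.61 ± 0.19 (adjusted p = 0.13). Outside the list, the Hsp40 genes Dnajb4 and Dnajb5 rose by 0.65 ± 0.17 and 0.38 ± 0.10 (adjusted p = 0.044 and 0.048), and without NRF replicate 3 neither passed (adjusted p = 0.22 and 0.08). Dnajb5 passed in 0 of the 8 fits with 1 library left out and Dnajb4 in 4, failing also without DRF replicates 1 or 3 or NRF replicate 4, and under the replicate block both missed (adjusted p = 0.0543 for Dnajb5 and 0.0579 for Dnajb4).

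In the endoplasmic reticulum 2 of 18 stress genes rose and 0 fell, against 0.674% and 0.299% of all genes tested. Hspa5, the main chaperone of its lumen, was at 207, 177, 195 and 178 CPM in DRF and at 148, 161, 161 and 148 CPM in NRF, a log2 difference of 0.29 ± 0.07 (adjusted p = 0.0396). Dnajb9, its co-chaperone, averaged 53.5 ± 3.5 CPM in DRF and 42.3 ± 4.1 CPM in NRF (SD, n = 4 each), a log2 difference of 0.33 ± 0.08 (limma adjusted p = 0.0258). The differences were small beside those of Hsp70. In both genes the groups did not overlap, as in 93.2% of the 117 called genes. Hspa5 lost its call without any library but DRF replicates 2 and 4 (adjusted p = 0.0534 to 0.206) and under the replicate block (0.0519), and Dnajb9 without DRF replicates 1 or 4 or NRF replicates 1 or 4 (adjusted p = 0.0758 to 0.142).

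Atf4 and one of its best known targets went opposite ways. Atf4, the transcription factor induced when amino acids are short, was at 202, 190, 221 and 220 CPM in DRF and at 144, 159, 170 and 141 CPM in NRF. It rose by 0.44 ± 0.09 log2 units (adjusted p = 0.00862; 0.064 without NRF replicate 4). Chac1, whose enzyme degrades glutathione, was at 9.18, 5.18, 5.25 and 4.0 CPM in DRF and at 38.5, 29.96, 9.04 and 20.8 CPM in NRF. The highest DRF library just passed the lowest NRF library, and the log2 difference was -1.77 ± 0.45 (adjusted p = 0.0376). That call was lost without DRF replicates 2, 3 or 4 or NRF replicates 1, 2 or 4 (adjusted p = 0.0854 to 0.129). These were the only 2 called of 20 amino acid response genes, and the asparagine synthetase gene Asns differed by 0.21 ± 0.20 (adjusted p = 0.76).

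Glucose and insulin genes gave few calls. Pfkfb3 and Chac1 had the largest falls on the log2 scale. Pfkfb3 encodes the enzyme that makes fructose 2,6-bisphosphate, the activator of glycolysis. It was at 142, 103, 259 and 125 CPM in DRF and at 429, 594, 560 and 523 CPM in NRF, so each DRF library was well below each NRF library. The log2 difference was -1.82 ± 0.45 (adjusted p = 0.0277), and with 1 library fewer it passed only without DRF replicate 3 or NRF replicate 1 (adjusted p = 0.0742 to 0.108 for the other 6). It was the sole call among 25 genes of glucose uptake and glycolysis, whose median difference was 0.02. None of 17 glycogen genes and none of 14 pyruvate dehydrogenase genes passed; at an unadjusted p under 0.05, 1 of each was higher and 0 lower (limma).

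Igf1r, the receptor of insulin-like growth factor 1, was at 41.2, 37.3, 33.4 and 33.2 CPM in DRF and at 28.5, 25.2, 23.7 and 22.9 CPM in NRF. Its log2 difference was 0.51 ± 0.11 (adjusted p = 0.00711), and it passed whichever library was left out but not with recovered read totals (0.0728). Pik3ip1, an inhibitor of PI3-kinase, was at 26.6, 23.7, 29.3 and 26.9 CPM in DRF and at 33.8, 50.6, 54.2 and 42.4 CPM in NRF. It fell by 0.73 ± 0.16 log2 units (adjusted p = 0.0107), and not past the threshold without NRF replicates 2 or 3 (adjusted p = 0.0513 and 0.0919). These were the only 2 called of 23 insulin signalling genes, and Pik3ip1 the only one of 22 FoxO factors and targets. Fbxo32, the ubiquitin ligase of muscle wasting, averaged 176 CPM in DRF and 275 CPM in NRF and did not pass (adjusted p = 0.45). Of 20 autophagy genes Atg14, a subunit of the lipid kinase that starts autophagosomes, fell to 8.75 ± 0.83 CPM in DRF, against 11.4 ± 0.81 CPM in NRF (SD, n = 4 each; log2 difference -0.35 ± 0.09, limma adjusted p = 0.0321). Without DRF replicates 2, 3 or 4 or NRF replicates 2, 3 or 4 its adjusted p was 0.066 to 0.165.

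Among 27 genes of ribosome biogenesis and translation 3 rose and 0 fell, against 0.674% and 0.299% of all genes tested. The median difference of the list was 0.16 with and without NRF replicate 3. Nop2, a methyltransferase of ribosomal RNA, was at 24.8, 27.6, 30.9 and 29.3 CPM in DRF and at 21.8, 20.3, 19.9 and 18.5 CPM in NRF, a log2 difference of 0.46 ± 0.09 (adjusted p = 0.00411) that passed in every setting tried. Eif4a1, the helicase of translation initiation, averaged 120 ± 7.8 CPM in DRF and 91.3 ± 3.5 CPM in NRF (SD, n = 4 each; log2 difference 0.38 ± 0.07, limma adjusted p = 0.00141), and passed whichever library was left out but not with recovered read totals (0.126). Nolc1, a nucleolar chaperone, rose by 0.35 ± 0.09 (adjusted p = 0.0441), and without DRF replicates 1, 3 or 4 or NRF replicates 2, 3 or 4 its adjusted p was 0.0904 to 0.285, and 0.0604 under the replicate block. Outside the list, 4 more factors of ribosome assembly or RNA processing, chosen after their values were seen, were called: Rrs1 at 0.59 ± 0.12, Pop1 at 0.45 ± 0.09, Sbds at 0.43 ± 0.09 and Pwp2 at 0.30 ± 0.08 log2 units. Rrs1 and Pop1 passed whichever library was left out, Rrs1, Sbds and Pwp2 did not pass with recovered read totals, and Sbds and Pwp2 did not pass without NRF replicate 3 (adjusted p = 0.06 and 0.18). Sbds failed also without DRF replicate 1, and Pwp2 passed only without DRF replicate 2 or NRF replicate 1.

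Of 19 genes of NAD and redox metabolism 3 rose and 0 fell, against 0.674% and 0.299% of all genes tested. Catalase, Cat, which removes hydrogen peroxide in peroxisomes, was at 185, 193, 164 and 183 CPM in DRF and at 121, 87.8, 58.1 and 101 CPM in NRF, again lowest in NRF replicate 3. It rose by 1.02 ± 0.23 log2 units (adjusted p = 0.0137; 0.144 without NRF replicate 3). Srxn1, the sulfiredoxin gene, was at 54.2, 39.7, 43.0 and 42.0 CPM in DRF and at 24.8, 34.4, 27.3 and 23.4 CPM in NRF, and rose by 0.69 ± 0.15 (adjusted p = 0.00971). Txnrd1, a thioredoxin reductase, rose by 0.41 ± 0.09 (adjusted p = 0.0136). Both enzymes restore oxidised thiol proteins. Srxn1 lost its call without DRF replicate 1 or NRF replicate 4 (adjusted p = 0.085 and 0.0762), and Txnrd1 without either of these or NRF replicate 3 (adjusted p = 0.0596 to 0.0839).

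No gene of the clock loop passed. Of its 18 genes 0 were called, with 1 higher and 1 lower at an unadjusted p under 0.05 (limma), and the median difference was -0.03. Arntl, an activator of the loop, was at 37.8 to 44.0 CPM in DRF and at 48, 25.1, 24 and 35.2 CPM in NRF. Per2, a repressor, was at 5.26, 5.82, 4.11 and 6.43 CPM in DRF and at 1.13, 10.2, 10.5 and 1.80 CPM in NRF, where the libraries fell into a low and a high pair. Per3 was likewise narrow in DRF, at 25.1 to 25.8 CPM, and wide in NRF, at 17.5, 49.4, 56.2 and 33.2 CPM. In Per2, Per3 and Ciart, another gene of the loop, NRF replicates 1 and 4 lay below NRF replicates 2 and 3, and in Arntl they lay above them. Nr1d1 and Npas2, also of the loop, did not divide this way. With the NRF libraries so divided in some genes, the lack of calls does not show that the loop was unchanged. Dbp, the output factor, was the 1 call among 4 output genes. It was at 11.2, 23.1, 18.1 and 24.1 CPM in DRF and at 22.7, 79.8, 103 and 47.8 CPM in NRF, and its log2 difference was -1.53 ± 0.32 (adjusted p = 0.00732). NRF replicate 1 lay among the DRF libraries, and in Dbp too NRF replicates 1 and 4 lay below NRF replicates 2 and 3. Dbp shares reads with another gene, and without DRF replicate 1 or NRF replicate 3 the adjusted p was 0.0581 and 0.0796. Nfil3, which binds the same sites as a repressor, averaged 41.7 CPM in DRF and 23.4 CPM in NRF (adjusted p = 0.0924).

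Other genes with large rises were in none of the lists above. Chrna2, a subunit of the nicotinic acetylcholine receptor, was at 8.09, 7.78, 4.04 and 4.28 CPM in DRF and at 0.714, 0.26, 0.0352 and 0.867 CPM in NRF, a log2 difference of 2.25 ± 0.47 (adjusted p = 0.0081; 0.0474 without NRF replicate 3). Tacc2, a coiled-coil protein of the microtubule cytoskeleton with shared reads, was at 949, 1462, 872 and 995 CPM in DRF and at 475, 426, 366 and 303 CPM in NRF. Its log2 difference was 1.43 ± 0.25 (adjusted p = 0.00141), and both calls held whichever library was left out. Xirp1, an actin-binding protein of striated muscle, was at 637, 348, 497 and 326 CPM in DRF and at 206, 280, 113 and 135 CPM in NRF. It rose by 1.34 ± 0.28 (adjusted p = 0.00819), and not without DRF replicate 1 or NRF replicates 3 or 4 (adjusted p = 0.0567 to 0.0796). Kcnf1, a silent subunit of potassium channels, rose by 1.41 ± 0.30 (adjusted p = 0.00819; 0.0549 without NRF replicate 3).

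Myod1, the myogenic transcription factor, was at 42.9, 37.3, 45.1 and 45.8 CPM in DRF and at 21.6, 27.9, 23.4 and 16.7 CPM in NRF. It rose by 0.92 ± 0.20 log2 units (adjusted p = 0.00862; 0.0808 without NRF replicate 4) and was the 1 call among 16 genes of myostatin signalling and muscle growth. Fkbp5, a co-chaperone of the glucocorticoid receptor and its well-known target, was at 64.9, 73.7, 49.2 and 53.4 CPM in DRF and at 38.8, 21.1, 14.8 and 15.6 CPM in NRF. Its log2 difference of 1.47 ± 0.39 was at the edge of the threshold (adjusted p = 0.0483; 0.0519 under the replicate block; 0.0787 to 0.21 without each library but NRF replicate 1). It was the 1 call among 20 glucocorticoid targets, whose median was 0.16. Rasl11b, a small GTPase, rose by 1.13 ± 0.29 (adjusted p = 0.0387), a call lost without DRF replicates 1, 3 or 4 or NRF replicates 2, 3 or 4 (adjusted p = 0.0511 to 0.21). Lmod1, an actin nucleator of smooth muscle, rose by 0.80 ± 0.16 (adjusted p = 0.00625), while the 6 smooth muscle markers, Lmod1 among them, overlapped in sum at 157 to 174 CPM in DRF and 143 to 180 CPM in NRF.

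The other genes that fell most have varied roles. Hs3st5, a sulfotransferase of heparan sulfate, was at 5.79, 5.55, 5.31 and 5.78 CPM in DRF and at 12.4, 8.42, 10.4 and 10.6 CPM in NRF. The DRF libraries lay close together and well below NRF. Its log2 difference was -0.78 ± 0.12, with an adjusted p of 0.00019. Nav2, a protein first known from growing axons, was at 14.2, 17.2, 17.5 and 12.2 CPM in DRF and at 42.6, 24.3, 21.9 and 33.1 CPM in NRF (log2 difference -0.91 ± 0.19, adjusted p = 0.00639). Fhod3, a formin that assembles sarcomeric actin, was at 35.8, 44.8, 45.4 and 44.0 CPM in DRF and at 58.8, 73.1, 78.3 and 57.3 CPM in NRF (log2 difference -0.63 ± 0.13, adjusted p = 0.00521). Hs3st5, Nav2, Fhod3 and also Gng7, a G protein subunit, and Lypd6, a small membrane-anchored protein, passed whichever library was left out. Gng7 and Lypd6 fell by 0.69 ± 0.13 and 0.63 ± 0.13 log2 units.

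Tet1, which oxidises methylated cytosine in DNA, was at 1.37, 1.73, 2.17 and 2.43 CPM in DRF and at 4.85, 2.73, 4.15 and 4.79 CPM in NRF (log2 difference -0.80 ± 0.18, adjusted p = 0.0106). Adamts3, a protease of procollagen, fell by 0.80 ± 0.18, Clec2e, a C-type lectin, by 0.75 ± 0.18, D430041D05Rik by 0.97 ± 0.21, and Il4i1, an amino acid oxidase with shared reads, by 0.92 ± 0.25. None of these 5 passed without NRF replicate 4 (adjusted p = 0.0567 to 0.0723). Tet1 and Adamts3 failed without DRF replicate 1 as well (adjusted p = 0.0828 and 0.118), Clec2e without DRF replicates 1 or 4 (0.0513 and 0.114), and Adamts3 and Clec2e without NRF replicate 3 (0.0796 and 0.117). Il4i1 passed with 1 library fewer only where that was NRF replicate 1 (adjusted p = 0.0549 to 0.248 for the rest, and 0.0604 under the replicate block). Lists with no call also held 24 immediate early and activity genes (median 0.32; Atf3 at 24.2 CPM in DRF and 7.65 CPM in NRF, adjusted p = 0.14), 20 of extracellular matrix (median -0.20), 22 interferon-inducible, 18 of branched-chain amino acid breakdown, 14 cold-inducible and 13 fast fibre genes. At an unadjusted p under 0.05 they gave 6, 0, 0, 0, 1 and 0 higher and 0, 2, 0, 0, 1 and 0 lower (limma), in the same order.

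**Figure D4:**
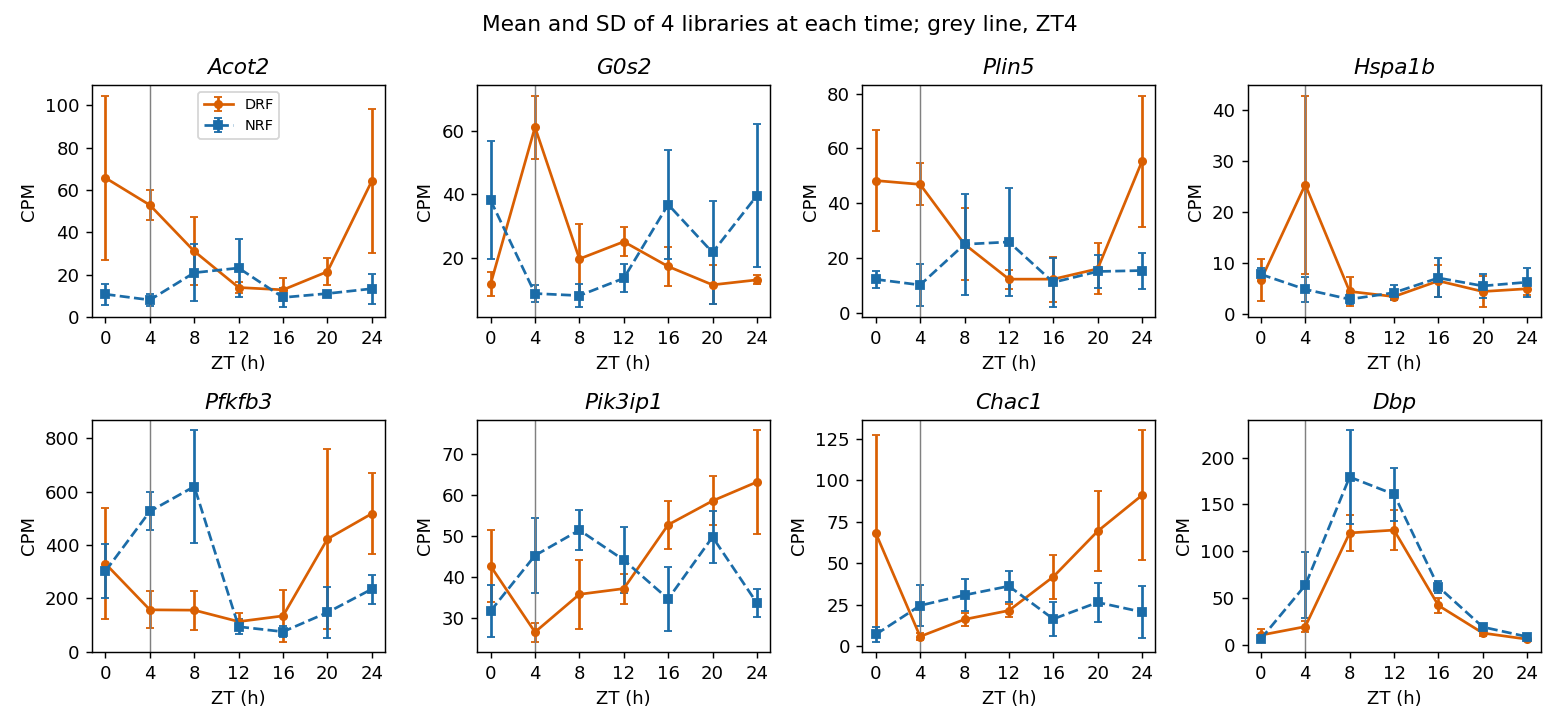
Mean level (CPM) with SD of 4 libraries in DRF (circles, solid line) and NRF (squares, dashed line) at each ZT from 0 to 24 h for 8 genes, with a grey line at ZT4. G0s2 and Hspa1b peak in DRF at ZT4, Acot2 and Plin5 are high in DRF at ZT0, 4 and 24, and Pfkfb3 is high in NRF at ZT4 and 8.

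The same genes followed different courses through the day. Set against ZT0 (ZT4 minus ZT0 within a regimen), 333 genes (2.77%) differed in DRF and 83 (0.69%) in NRF; these comparisons use the ZT4 libraries again and are given only side by side. G0s2 averaged 61.2 CPM at ZT4 and 11.7 CPM at ZT0 in DRF (log2 difference 2.34, adjusted p = 0.00162), and 8.75 CPM at ZT4 and 38.1 CPM at ZT0 in NRF (log2 difference -1.93, adjusted p = 0.0294). It was thus higher at ZT4 than at ZT0 in DRF and lower in NRF. Acot2 was already high in DRF at ZT0, at 65.7 ± 38.8 CPM, against 10.9 ± 4.86 CPM in NRF (SD, n = 4 each), and neither regimen changed past the threshold by ZT4 (adjusted p = 0.951 in DRF and 0.761 in NRF, limma). DRF and NRF differed at ZT0 in 222 genes (1.85%). Acot1, Acot2, Mlycd and Tacc2 were among them, in the same direction as at ZT4 (limma adjusted p = 0.0125, 0.0031, 0.0105 and 0.00319). Igf1r, Nav2 and Phlda3, the last described further below, were also among them in the ZT4 direction. Their log2 differences at ZT0 were 0.38, -0.67 and 0.82 (limma adjusted p = 0.0443, 0.0436 and 0.000306). So were Chac1, Myod1 and Atg14, but in the direction opposite to ZT4. Their log2 differences at ZT0 were 2.90, -0.96 and 0.33 (limma adjusted p = 0.000141, 0.00459 and 0.0292). Hspa1b rose between ZT0 and ZT4 in DRF, by 1.65 log2 units (adjusted p = 0.0134), and changed by -0.68 in NRF (adjusted p = 0.42). Xirp1 likewise rose by 1.48 in DRF (adjusted p = 0.00151) and changed by -0.19 in NRF (adjusted p = 0.778).

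Chac1 fell in DRF between ZT0 and ZT4 by 3.05 log2 units (adjusted p = 8.28e-05) and changed by 1.62 in NRF (adjusted p = 0.086). Dbp, at the start of its daily rise, rose between ZT0 and ZT4 in NRF by 3.02 log2 units (adjusted p = 2.11e-08), and its change in DRF was 1.03 (adjusted p = 0.0646). Hs3st5 fell in DRF by 0.72 (adjusted p = 0.000168), while the change in NRF was 0.07 (adjusted p = 0.818). Myod1 rose in DRF by 0.76 (adjusted p = 0.0224) and fell in NRF by 1.12 (adjusted p = 0.00174).

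At ZT8, the next time of the light phase, 25 genes (0.208%) differed between DRF and NRF. Of the 117 genes called at ZT4, 3 were called in the same direction at ZT8 (Eif4a1, Pfkfb3 and Pik3cd), which is 2.56% of the ZT4 list and 12.0% of the ZT8 list, and 0 were called in the opposite one. The difference between the regimens changed from ZT4 to ZT8 past the threshold for 1 gene, Igf1r (0.00832%), while 800 genes did so at an unadjusted p under 0.05 (limma). Igf1r was at 36.3 CPM in DRF and 25.1 CPM in NRF at ZT4, and at 24.3 CPM in DRF and 31.8 CPM in NRF at ZT8, so that the difference at ZT4 minus that at ZT8 was 0.88 log2 units (adjusted p = 0.00523). Pfkfb3 stayed low in DRF at ZT8, at 156 CPM against 619 CPM in NRF. That count of 1 was 9 without NRF replicate 1 and 2 without DRF replicate 2.

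ZT16 is 4 h after lights off, when the regimen with food is the other one if food follows the light phase. There 1293 genes (10.8%) differed. Of the 117 genes 10 were called in the opposite direction at ZT16, namely Chac1, Dnajb4, Dusp27, Eif4a1, Fubp1, Ifrd1, Pik3ip1, Sec14l1, Zbtb7a and Zcchc10, which is 8.55% of the ZT4 list and 0.773% of the ZT16 list. Rab11b, with shared reads, was called in the same direction. The difference between regimens itself changed between ZT4 and ZT16 for 196 genes (1.63%), 51 of the 117 among them. That total was 87 without DRF replicate 1, 116 without DRF replicate 3, 126 without NRF replicate 2 and 123 without NRF replicate 4. The 117 were called by their difference at ZT4, which is part of this change, so a larger share among them was built in.

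G0s2 averaged 17.3 CPM in DRF and 36.8 CPM in NRF at ZT16, a difference that did not pass there (adjusted p = 0.133), and its difference at ZT4 minus that at ZT16 was 3.71 ± 0.63 log2 units (adjusted p = 0.000542). Chac1 averaged 41.9 CPM in DRF and 16.5 CPM in NRF at ZT16, and the same subtraction gave -3.18 ± 0.64 (adjusted p = 0.00381). Pik3ip1, at 52.7 CPM in DRF and 34.7 CPM in NRF at ZT16, was also called in the opposite direction there (log2 difference 0.61, limma adjusted p = 0.0191). Its difference at ZT4 minus that at ZT16 was -1.34 ± 0.23 (adjusted p = 0.000542). Dusp27, a phosphatase-like protein of muscle, was at 122, 127, 130 and 119 CPM in DRF and at 79.2, 73.0, 73.0 and 63.3 CPM in NRF at ZT4, and for it the subtraction gave 1.25 log2 units (adjusted p = 2.3e-05). Pfkfb3 gave -2.47 ± 0.63 (adjusted p = 0.0296), with levels of 135 CPM in DRF and 75.3 CPM in NRF at ZT16, where the regimens did not differ past the threshold (adjusted p = 0.354). Acot1 averaged 2.73 CPM in DRF and 0.782 CPM in NRF at ZT16, and Acot2 13 CPM in DRF and 9.37 CPM in NRF, and the subtraction did not pass for either (adjusted p = 0.156 and 0.0715). Nr1d1, a repressor of the clock loop with shared reads, was not called at ZT4, at 245 CPM in DRF and 320 CPM in NRF (adjusted p = 0.629), but stood at 58.4 CPM in DRF and 24.4 CPM in NRF at ZT16. Its difference at ZT4 minus that at ZT16 was -1.61 ± 0.38 (adjusted p = 0.0173).

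**Figure D5:**
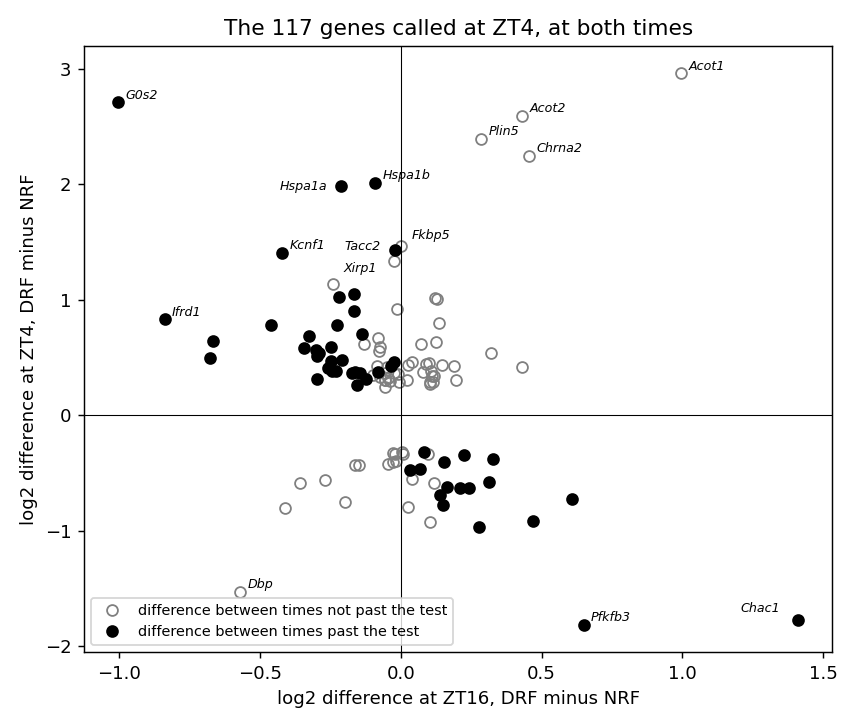
Log2 difference (DRF minus NRF) at ZT4 against that at ZT16 for the 117 genes called at ZT4. Filled points are the 51 genes whose difference changed between the times at an adjusted p under 0.05; Chac1 and Pfkfb3 lie at the lower right and G0s2 at the upper left.

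Promoter windows of 250 bases before to 50 after the start were searched on both strands for 10 short motifs, and 104 of the 117 genes and 9612 of all genes tested had a window. The E-box CACGTG, which clock and growth factors of the basic helix-loop-helix family bind, was in 16 of the 104 (15.4%) and in 11.9% of all. The amino acid response letters TGATGNAA, which ATF4 can bind, were in 5 (4.81%), Chac1 among them, and in 2.77% of all. The cAMP letters TGACGTCA were in 3 (2.88%), against 3.54%, and the sterol letters TCACNCCAC in Kcnf1 alone, against 1.38%. No window of a called gene held the D-box TTATGTAA (0.593% of all), the FoxO letters GTAAACA (3.05%), or the longer heat shock (0.593%), PPAR (0.0312%) or glucocorticoid (0.0104%) elements, which are rare in windows this short. A match is a description of the letters and not a bound site.

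The windows of 4 genes that changed at ZT4 are shown because each holds 1 such match close to a named start. They come from RefSeq on GRCm38.p6 and run 5′ to 3′ on the strand of the gene, with the match in capitals. Pfkfb3 lies on the minus strand at chr2:11502041-11502340, at the more downstream of its listed starts, and its E-box starts 53 bases before that start. Fkbp5, also minus, is at chr17:28486100-28486399 with the E-box 169 bases before. Nop2, plus, is at chr6:125131633-125131932 with the E-box 60 bases before. In Chac1, plus, chr2:119350992-119351291, the capitals are the amino acid response letters on the other strand, 193 bases before the start.
Pfkfb3: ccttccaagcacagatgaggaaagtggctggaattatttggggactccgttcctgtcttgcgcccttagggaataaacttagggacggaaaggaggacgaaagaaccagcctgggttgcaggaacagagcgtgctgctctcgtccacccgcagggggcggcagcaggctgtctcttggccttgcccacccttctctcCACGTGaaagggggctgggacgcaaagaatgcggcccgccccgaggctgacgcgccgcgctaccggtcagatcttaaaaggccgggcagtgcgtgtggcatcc
Fkbp5: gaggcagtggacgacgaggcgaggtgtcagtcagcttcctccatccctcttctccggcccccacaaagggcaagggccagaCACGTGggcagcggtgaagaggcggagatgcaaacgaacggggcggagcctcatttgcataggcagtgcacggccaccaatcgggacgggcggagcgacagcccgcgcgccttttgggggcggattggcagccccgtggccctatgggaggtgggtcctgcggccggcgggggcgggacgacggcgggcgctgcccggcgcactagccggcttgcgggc
Nop2: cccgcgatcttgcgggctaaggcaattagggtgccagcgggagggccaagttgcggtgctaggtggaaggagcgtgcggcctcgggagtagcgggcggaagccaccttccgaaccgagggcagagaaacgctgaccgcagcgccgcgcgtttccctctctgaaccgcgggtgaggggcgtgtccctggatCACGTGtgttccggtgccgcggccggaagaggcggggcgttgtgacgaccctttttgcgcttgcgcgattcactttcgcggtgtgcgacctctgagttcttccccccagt
Chac1: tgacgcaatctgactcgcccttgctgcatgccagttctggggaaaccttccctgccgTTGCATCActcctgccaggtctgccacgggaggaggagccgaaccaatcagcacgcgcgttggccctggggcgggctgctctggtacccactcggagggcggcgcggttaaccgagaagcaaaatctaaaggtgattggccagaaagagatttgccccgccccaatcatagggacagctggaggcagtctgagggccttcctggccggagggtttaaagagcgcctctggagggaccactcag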

How the data were processed

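Polyadenylated RNA of gastrocnemius was read as paired ends of 100 bases on a BGISEQ-500, per the labels' protocols, from libraries that are unstranded as far as those protocols describe them, in which overlapping antisense transcripts could not be separated. HISAT2, Bowtie2, RSEM, mm10 and GRCm38.p6 appear in the submitters' processing notes, with no roles or versions. The authors deposited 1 value per gene and library under a TPM heading, but these values are a score and not TPM: they equal a library constant times log2 of 1 plus reads per 1000000, divided by gene length. Solving that form on 3497 calibration genes gave a whole-number length for 100% of them, and estimated read counts were recovered for 17443 of 19072 genes, 14837 of them whole numbers (within 0.001 reads) and 2606 with decimals; 1629 genes, above 0 in fewer than 4 libraries, were left out. Decimals are what shared reads give, and such genes are named as sharing reads or uncertain. Recovered reads were 29461879 to 31463783 in the ZT4 libraries and 28173228 to 36183615 in all 56. The 10 most abundant genes took 22.1 to 26.6% of them in DRF and 21.7 to 29.4% in NRF at ZT4. CPM used the library sizes that the deposited values fix, which were 0.976 to 1.09 times the recovered reads in DRF and 0.926 to 1.14 times in NRF.

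The 12025 genes with a mean of at least 1 CPM over all libraries, 1790 of them with decimals, were fitted as log2(CPM + 1) with limma 3.58.1 in R 4.3.3 (linear model with 1 mean for each of 14 groups, mean-variance trend, Benjamini-Hochberg, two-sided, threshold 0.05). A log2 difference on that scale understates the change of low genes. The fit was tested on simulated data. Genes named were the 12 largest rises and 12 largest falls among called genes with a symbol and no overlap between groups, up to 3 called members of each of 41 lists, and the clock genes; any other gene was named after its values were seen. The members and lists were chosen with earlier results of these data known. Symbols and coordinates came from RefSeq on GRCm38.p6, and 12006 of the genes tested had a symbol. The replicate numbers were checked for pairing by correlating deviations from the group means over genes. Same-numbered ZT4 libraries gave 0.23, 0.182, 0.171 and 0.115, all above 0.1. Different-numbered ones gave -0.221 to 0.181 (DRF replicate 4 with NRF replicate 3). These ranges overlap, so the check does not settle whether the numbers pair the libraries, and the labels do not say what a number marks. The main fit treats the libraries as unpaired, and the numbers were used only in the fit with the replicate block. One gene of the clock list and 1 motif are not reported here. Tables of rhythm statistics were not used, and no column of libraries was left unused.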

Additional observations from a re-analysis of the deposited data

Results flagged for a closer look

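In 6 of the 122 groups of 4 libraries of the 61 named genes, 1 library lay far from the others, where chance gives about 1 in 20. The gap of that library to its neighbour, as a share of the range of the group, was 0.888 for D430041D05Rik (DRF replicate 3 highest), 0.855 for Fhod3 (DRF replicate 1 lowest), 0.883 for Per3 (DRF replicate 2 highest, in a group that spans only 25.1 to 25.8 CPM), 0.918 for Npas2 and 0.844 for Bhlhe40 (DRF replicate 4 lowest in both) and 0.914 for Lmod1 (NRF replicate 1 highest).

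For 21 of the 61 named genes the difference between DRF and NRF at ZT4 was not that at ZT16 by the test of the change itself (limma, adjusted p under 0.05). Over all 12025 genes tested it was 196 (1.63%). Apart from the clock genes, the named genes were chosen by their difference at ZT4, which is part of this change. A larger share among them was thus built in. The difference at ZT4 minus that at ZT16, in log2 units, was 3.71 for G0s2, 2.20 for Hspa1a, 2.11 for Hspa1b, 1.83 for Kcnf1, 1.45 for Tacc2, 1.01 for Srxn1, 0.81 for Igf1r, 0.67 for Txnrd1, 0.62 for Eif4a1 and 0.49 for Nop2. It was below 0 for the others: -3.18 for Chac1, -2.47 for Pfkfb3, -1.61 for Nr1d1, -1.38 for Nav2, -1.34 for Pik3ip1, -1.25 for D430041D05Rik, -0.93 for Hs3st5, -0.87 for Lypd6, -0.84 for Fhod3, -0.83 for Gng7 and -0.57 for Atg14. Hspa1a and Hspa1b were nearest the threshold (adjusted p = 0.0464 and 0.041), and Eif4a1 farthest past it (adjusted p = 0.000165). Igf1r also differed between ZT4 and ZT8, by 0.88.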

How the results depend on the processing

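Of the 61 named genes under 21 other settings, 1132 results kept their side of the threshold, 143 fell short of it and 5 passed anew. In 0 results did the direction reverse where either fit passed. A change of sign with neither fit past the threshold counts among the 1132. Such clock genes include Bhlhe40, at -0.18 to 0.08 log2 units over the settings, and Per2, at -0.16 to 0.64. The counts of 117 called (81 higher, 36 lower), 196 genes changing between ZT4 and ZT16 and 1 between ZT4 and ZT8 moved most with library weights, to 531 (361 higher, 170 lower), 1064 and 16. Recovered read totals gave 66 (24 higher) and for ZT8 0 (limma; 579 at an unadjusted p under 0.05); the deposited scores gave 48 higher, and 112 and 2 genes for ZT16 and ZT8. An adipocyte score as covariate gave 190 (144 higher) and 8 for ZT8, and a slow fibre score, chosen after seeing the data, 423 for ZT16 and 12 for ZT8, with 143 called at ZT4. Leaving out 1 library gave 39 to 149 called, 24 to 111 higher, 13 to 38 lower, 87 to 230 for ZT16 and 1 to 9 for ZT8; the cause of these shifts was not tested. With the replicate block 105 genes were called, 103 of them among the 117, and the genes named by rule that lost their call were Fkbp5, Il4i1, Hspa5 and Nolc1 (adjusted p = 0.0519, 0.0604, 0.0519 and 0.0604). Median-of-ratios sizes, pseudocount 0.5, either filter, voom weights and removal of a length trend gave 102 to 127 called. Fitted on the 8 ZT4 libraries alone, the named genes that fell short had adjusted p = 0.0614 (Tet1) to 0.16 (Nolc1). With all 56 libraries fitted, the median standard error at ZT4 over genes was 0.117 log2 units, and no called difference was under 0.243.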

Other observations

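Of the 117 genes called at ZT4, 92 are in none of the gene lists. Among those that rose are genes of the muscle cell surface and cytoskeleton and of growth, all picked out here after their values were seen. Abra, which binds actin, was at 329, 203, 271 and 226 CPM in DRF and at 103, 203, 116 and 97.1 CPM in NRF, and rose by 1.03 ± 0.23 log2 units (limma adjusted p = 0.012; 0.059 without NRF replicate 3), failing also without DRF replicate 1 or NRF replicate 4. NRF replicate 2, at 202.6 CPM, stood just under the lowest DRF library, at 203.1 CPM. Dok7, an activator of the receptor kinase that gathers acetylcholine receptors at the nerve junction, was at 22.7, 22.8, 20.1 and 21.1 CPM in DRF and at 14.1, 16.9, 15.3 and 11.3 CPM in NRF, with a rise of 0.57 ± 0.14 (adjusted p = 0.023; 0.051 without NRF replicate 3) that passed with 1 library fewer only without DRF replicate 3 or NRF replicates 1 or 2. Osgin1, induced by oxidative stress, rose by 1.05 ± 0.23 (adjusted p = 0.0095; not past the threshold without NRF replicate 4) and Phlda3, a repressor of Akt, by 0.71 ± 0.13 (adjusted p = 0.0041). Phlda3 did not pass in the fit on the 8 ZT4 libraries alone.

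Signalling genes were among those that fell. Pik3cd, a catalytic subunit of PI3-kinase, was at 13.3, 12.8, 12.5 and 13 CPM in DRF and at 17.1, 22.5, 19.6 and 19.9 CPM in NRF, a log2 difference of -0.58 ± 0.12 (limma adjusted p = 0.0064). Ptprs, a receptor tyrosine phosphatase, was at 32.6, 31.6, 32.8 and 30.3 CPM in DRF and at 41.2, 44.3, 47.1 and 45.5 CPM in NRF, and Tnik, a kinase of the Wnt pathway, averaged 37.9 ± 4.1 CPM in DRF and 58.6 ± 1.8 CPM in NRF (SD, n = 4 each). In all 3 the groups stood clear of each other, and the calls held whichever library was left out. Camk2d, a calcium-dependent kinase, fell by 0.58 ± 0.14 (adjusted p = 0.028), but not without NRF replicate 3 (adjusted p = 0.16), and with 1 library fewer it passed only without DRF replicate 3 or NRF replicate 1.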
